A study of Mus musculus with 2 samples.

Results

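Complex I of the respiratory chain was followed through the 44 genes whose symbols begin with Nduf in the annotation of an Affymetrix mouse expression array, out of 18193 genes with a probe set of 1 gene. They are read by 88 of the array's 45101 probe sets, chosen by symbol alone, although earlier results of these data were known when the family was picked. The genes comprise 13 with Ndufa symbols, 11 Ndufb, 2 Ndufc, 6 Ndufs, 3 Ndufv, the acyl carrier protein Ndufab1 and 8 Ndufaf assembly factors. Another 10 probe sets that the annotation gives to an Nduf gene together with some other gene were left out, and the subunits Ndufs6 and Ndufa11 were not analysed here.

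The arrays came from 3T3-L1, a clonal line of mouse preadipocytes that can turn into fat-storing cells. Induction was by 3-isobutyl-1-methylxanthine together with dexamethasone and insulin. The cultures had received an siRNA against Phf21a (the gene of BHC80, a subunit of an LSD1 corepressor complex) or siGL3 as control siRNA. Both were induced 24 h after transfection and lysed 24 h after that, so both carry the induction and the transfection and differ by label only in the siRNA, which reduces a messenger without deleting its gene. For both cultures the labels give 25 mM glucose and 10% serum. There was 1 array for each siRNA, which limits the precision of every value: no test was run, no value has a replicate error, and a difference between the arrays cannot be set against the spread between cultures. The comparison asks how gene expression early in fat cell differentiation differs when Phf21a is reduced.

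Complex I is the entry point of electrons from NADH into the respiratory chain. It passes them to ubiquinone and pumps protons across the inner mitochondrial membrane. Its matrix arm holds the N module, where NADH is oxidised, and the Q module, where ubiquinone is reduced. Its membrane arm holds a proximal and a distal part. The subunits that carry out the chemistry are called core subunits, some encoded by nuclear and some by mitochondrial DNA, and the remainder are accessory. Assembly factors help to build the complex and are not part of the finished enzyme. In fat cells, mitochondrial content grows during differentiation.

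Values are the authors' MAS5 signal intensities on a linear scale, and as deposited both arrays have a mean of 500 once the lowest and highest 2% are trimmed. Detection needed a signal of 51.3, the median over both arrays, on at least 1 array. The brightest detected probe set stood for each gene, and those ending in _x_at, which can bind related transcripts, did so only where there was no other. Log2 ratios are Phf21a siRNA over control siRNA, and "higher" or "lower" describes the Phf21a siRNA array. The value after ± is a local spread: among the 1000 genes of most similar signal, the 84th percentile of the log2 ratios minus the 16th, divided by 2. True changes are part of it, and it does not stand in for replicate error.

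The targeted gene was lower. Phf21a had a signal of 306 on the Phf21a siRNA array and 768 on the control array (log2 ratio -1.33 ± 0.52), and its 3 detected probe sets ranged from -1.35 to -0.73. All 6 fibroblast and preadipocyte markers were detected, with summed signals of 32711 on the Phf21a siRNA array and 38558 on the control array. The lower sum rested on Dlk1, an inhibitor of fat cell differentiation (5940 with Phf21a siRNA and 12290 with control siRNA). Without it the other 5 summed to 26771 with Phf21a siRNA and 26268 with control siRNA. Col1a1, Pdgfra and Thy1 were lower, while Col1a2 and Pdgfrb (3743 with Phf21a siRNA and 2092 with control siRNA) were higher. Of 6 adipocyte markers 3 were detected, and they did not lie on the same side. Fabp4, a fatty acid carrier (5849 with Phf21a siRNA and 3502 with control siRNA), and Pparg, a master regulator of fat cells (814 with Phf21a siRNA and 512 with control siRNA), were higher. Lpl, a lipase, was lower (3253 with Phf21a siRNA and 3614 with control siRNA). The summed adipocyte signals, undetected genes included, were 9954 with Phf21a siRNA and 7685 with control siRNA. The part of these markers in the results below was not tested. Adipoq and Cebpa, which mark more mature fat cells, were not detected, and Plin1 was not analysed here. None of 6 endothelial and epithelial markers was detected. Summed signals of 5 leukocyte markers were 213 with Phf21a siRNA and 131 with control siRNA, with Ptprc, Tyrobp and Cd52 undetected. The ratio of 3′ to 5′ signal, a sign of RNA integrity, was 0.816 with Phf21a siRNA and 0.792 with control siRNA for Gapdh, and 1.22 with Phf21a siRNA and 1.15 with control siRNA for Actb.

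Of the 44 complex I genes 42 were detected, each of them above the detection limit on both arrays. The exceptions were Ndufa4l2, a paralogue of Ndufa4 (7.05 with Phf21a siRNA, 12.9 with control siRNA), and Ndufb4, whose only probe set of 1 gene gave 41.4 on the Phf21a siRNA array and 41.1 on the control array. As deposited, the 42 genes stood slightly above all detected genes. Their median log2 ratio was 0.22, against 0.03 for all 11301 detected genes, a gap of 0.19. Of the 42 genes 35 had a log2 ratio above 0, or 83.3%, against 52.2% of all detected genes. Only 3 were higher by 1.5-fold or more (Ndufs5, Ndufs7 and Ndufaf5), against 15.2% of all detected genes. None of the 42 was lower by that much, against 13.9% of all detected genes. As deposited, the genes thus showed many small differences on the same side and few sizeable ones, and the side changed with the scaling described next. In RNA from whole cultures, fewer cells of a type and less RNA per cell cannot be told apart.

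The direction depends on how the arrays are scaled. A scaling to controls shifts every gene by the same amount, so it leaves the position relative to other genes as it is. The probe sets for poly-A control RNA were brighter on the Phf21a siRNA array (median log2 ratio 0.73 over 24 probe sets, from 0.44 to 0.95), and so were the hybridisation controls (0.23 over 18 probe sets, from 0.10 to 0.37). Scaled to the hybridisation controls, the median of the 42 genes was -0.0067 and that of all detected genes -0.20. Scaled to the poly-A controls, the median of the 42 genes was -0.50 and that of all detected genes -0.70. As deposited, 34 of the 42 genes lay above the median of all detected genes. Median centring and both control scalings cannot change that count. Quantile normalization and loess can, and the count was 34 under each. Neither control scaling left any of the 42 genes past 1.5-fold upward. Whether the poly-A control RNA was added in a fixed amount per mass of sample RNA is not given in the labels used here, so which scaling is right is unknown. The gap between the complex I median and the overall median ranged from 0.17 under loess to 0.21 without a detection limit. All log2 ratios that follow are for the arrays as deposited, and the overall median of 0.03 is the level to read them against.

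**Figure D1:**
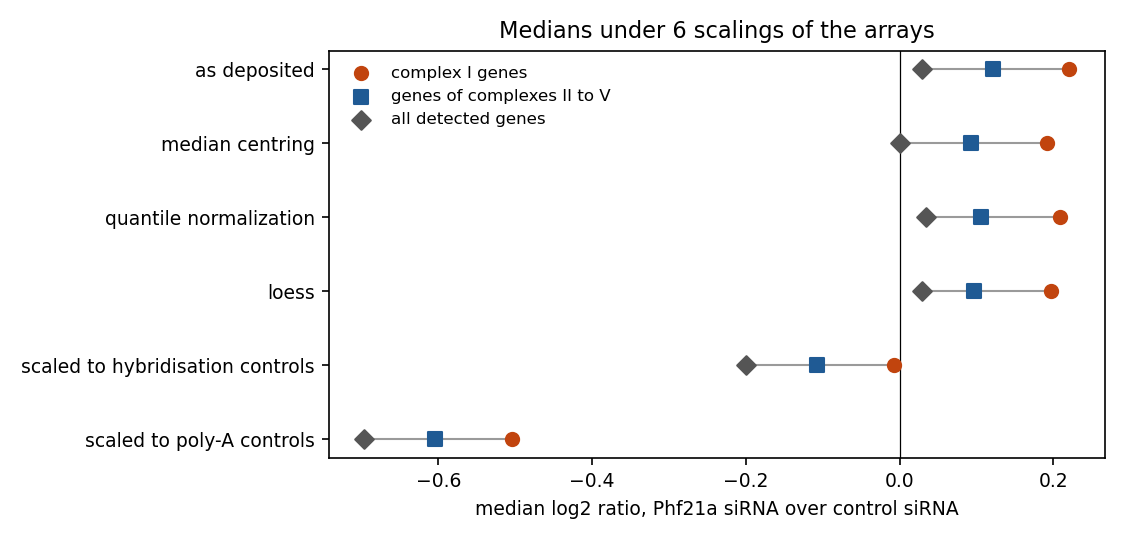
Median log2 ratio (Phf21a siRNA over control siRNA) of the complex I genes, the genes of complexes II to V and all detected genes under 6 ways of scaling the arrays. The complex I median is 0.22 as deposited, -0.0067 under hybridisation scaling and -0.50 under poly-A scaling. It lies above the median of all detected genes under all 6, though median centring and both control scalings cannot change that gap.

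Most of these genes have bright probe sets. Of the 42 genes 34 had a mean signal at or above 1777, the 90th percentile of all signals. Among these 34 genes 29 were above 0, 2 were higher by 1.5-fold or more and 0 were lower by that much. Among all 2783 genes this bright, 54.2% were above 0, 8.77% passed 1.5-fold upward and 7.01% downward, with a median log2 ratio of 0.04. The local spread allows for brightness too. By that measure 10 of the 42 genes were higher by more than their local spread and 0 were lower by more than it, against 18.3% and 14.7% of all detected genes, and 32 lay within it.

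**Figure D2:**
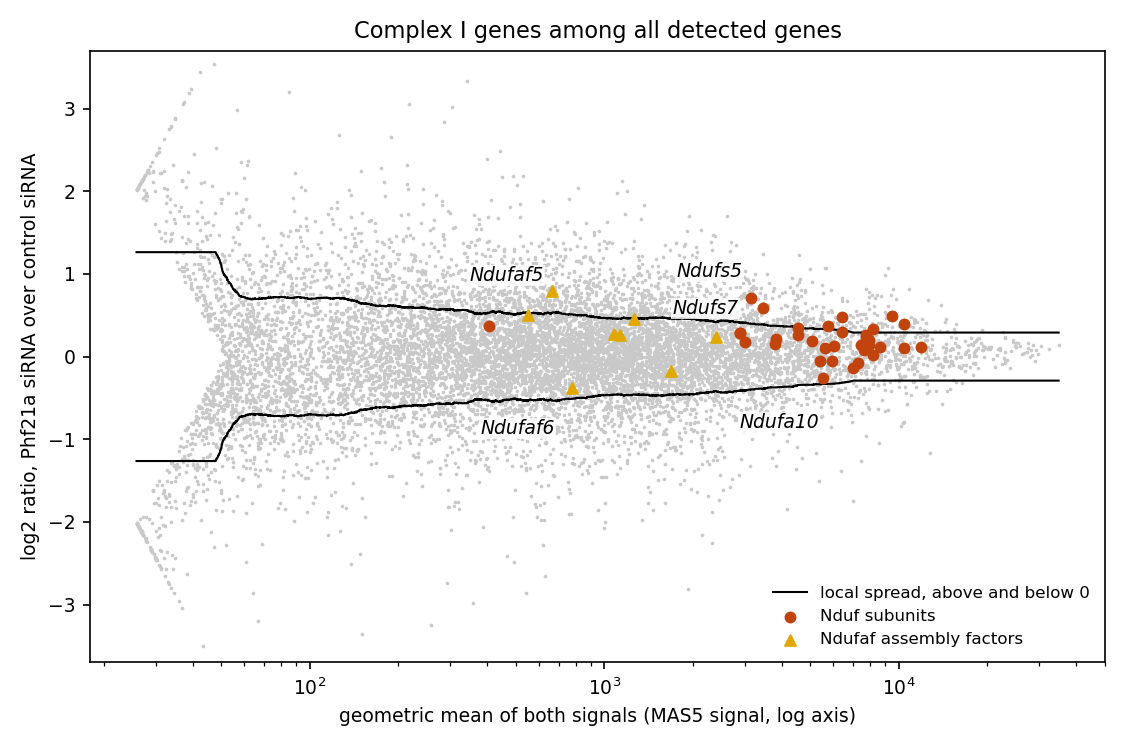
Log2 ratio (Phf21a siRNA over control siRNA, arrays scaled as deposited) against the geometric mean of both signals (log axis) for 11301 detected genes in grey, the complex I subunits as filled circles and the Ndufaf assembly factors as triangles; black lines mark the local spread above and below 0. Of the 42 complex I genes 10 lie above the upper line and 0 below the lower line, and both control scalings would move every point down.

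The Ndufs genes, which include most of the iron-sulfur core, had the largest class median by their brightest probe sets. All 6 were above 0, with a median log2 ratio of 0.34 and a range of 0.17 to 0.71, and 4 of them passed their local spread. With the detected probe sets of each gene averaged, the Ndufs median was 0.26 and the Ndufaf median 0.27, so the order of these classes changed. Ndufs5, an accessory subunit on the intermembrane-space side of the membrane arm, had a signal of 4034 on the Phf21a siRNA array and 2470 on the control array (0.71 ± 0.40), or 1.63-fold higher. A second probe set is annotated to Ndufs5 and its pseudogene together and was left out. Ndufs7, the core subunit that holds the last iron-sulfur cluster before ubiquinone, had 4258 on the Phf21a siRNA array and 2831 on the control array (0.59 ± 0.39). Its other probe set gave 3178 with Phf21a siRNA and 2670 with control siRNA (0.25), so Ndufs7 passed 1.5-fold on 1 of its 2 probe sets. It lay just under 1.5-fold (0.58 on the log2 scale) after median centring (0.56), quantile normalization (0.57) and loess (0.56). Scaled to the poly-A controls, Ndufs5 stood at -0.017 and Ndufs7 at -0.14.

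The remaining Ndufs genes were closer to 0. Ndufs3, a core subunit of the Q module, had 5154 on the Phf21a siRNA array and 4042 on the control array (0.35 ± 0.34). Ndufs8, a core subunit that carries iron-sulfur clusters, had 9142 with Phf21a siRNA and 7276 with control siRNA (0.33 ± 0.29). Its 6 probe sets did not agree in sign and ran from -0.42, on a dim one (139 with Phf21a siRNA, 187 with control siRNA), to 0.33. A brighter one was also below 0 (2069 with Phf21a siRNA, 2409 with control siRNA, -0.22). Averaging the 6 gave 0.013, so the value of Ndufs8 rested on which probe set stood for it. Ndufs4, an accessory subunit whose loss causes Leigh syndrome in human, had 3195 with Phf21a siRNA and 2616 with control siRNA (0.29 ± 0.41). On the other hand, a dim Ndufs4 probe set gave 69.4 on the Phf21a siRNA array and 148 on the control array (-1.09), and averaging its 4 probe sets gave -0.29. Ndufs1, the largest core subunit, had 3185 with Phf21a siRNA and 2826 with control siRNA (0.17 ± 0.41).

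The Ndufv genes belong to the N module and lay on the same side. Ndufv1, which binds FMN and takes the electrons from NADH, had 5793 on the Phf21a siRNA array and 5412 on the control array (0.10 ± 0.33), with 3 probe sets between 0.07 and 0.10. Ndufv2, its iron-sulfur partner, had 8473 with Phf21a siRNA and 7361 with control siRNA (0.20 ± 0.29), with 3 probe sets between 0.11 and 0.20. For both genes all probe sets thus lay on the same side and within the local spread. Ndufv3, the accessory subunit of that trio, had 7570 with Phf21a siRNA and 5427 with control siRNA (0.48 ± 0.31) and was the Ndufv gene furthest from 0.

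The Ndufa genes, accessory subunits of both arms, lay on both sides of 0. Of 12 detected, 7 were above 0 and 5 below, with a median log2 ratio of 0.11. Ndufa13, an accessory subunit also known for a role in cell death, was highest with 11886 on the Phf21a siRNA array and 9076 on the control array (0.39 ± 0.29). Ndufa3 had 7096 with Phf21a siRNA and 5785 with control siRNA (0.29 ± 0.31). Its 3 probe sets lay between 0.29 and 0.42, all on the same side. Ndufa6 had 3187 with Phf21a siRNA and 2616 with control siRNA (0.29 ± 0.41). Ndufa8 had 8442 with Phf21a siRNA and 7045 with control siRNA (0.26 ± 0.29). These 3 accessory subunits lay within their local spread. Ndufa1, the small subunit of the proximal membrane arm encoded on the X chromosome, had 12414 with Phf21a siRNA and 11411 with control siRNA (0.12 ± 0.29). Ndufa2, an accessory subunit of the N module, had 8947 with Phf21a siRNA and 8271 with control siRNA (0.11 ± 0.29). Ndufa4, now assigned to complex IV in spite of its symbol, had 10803 with Phf21a siRNA and 10032 with control siRNA (0.11 ± 0.29).

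The 5 genes below 0 were Ndufa10, Ndufa7, Ndufa5, Ndufa12 and Ndufa9, and each lay within its local spread. Ndufa10, an accessory subunit of the membrane arm, was the lowest subunit with 5068 on the Phf21a siRNA array and 6056 on the control array (-0.26 ± 0.33). A second, dim probe set gave 88.4 with Phf21a siRNA and 64.0 with control siRNA (0.47), and the mean of both was 0.10. Ndufa7, an N module subunit, had 6673 with Phf21a siRNA and 7336 with control siRNA (-0.14 ± 0.29), although its 5 probe sets reached 0.31. Ndufa12, at the tip of the matrix arm, had 5312 with Phf21a siRNA and 5502 with control siRNA (-0.05 ± 0.34), with 4 probe sets up to 0.38. Ndufa5, a Q module subunit, had 7072 with Phf21a siRNA and 7439 with control siRNA (-0.07 ± 0.29), with a second probe set at 0.08. Ndufa9, which sits near the junction of the arms, had a lone probe set at 5827 with Phf21a siRNA and 6027 with control siRNA (-0.05 ± 0.33). For 4 of these 5 genes the sign thus rested on which probe set stood for the gene.

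The Ndufb genes, subunits of the distal membrane arm, were all above 0. The 10 detected had a median log2 ratio of 0.22, and 2 of them passed their local spread. Ndufb11, an X-linked subunit, had 11283 on the Phf21a siRNA array and 8004 on the control array (0.50 ± 0.29). Its 3 probe sets agreed, from 0.40 to 0.64. Ndufb5 had 6549 with Phf21a siRNA and 5059 with control siRNA (0.37 ± 0.33), and its other probe set gave 0.36. Ndufb1 had 461 with Phf21a siRNA and 358 with control siRNA (0.36 ± 0.53), which is inside its local spread. At the other end Ndufb8 had 8250 on the Phf21a siRNA array and 8139 on the control array (0.02 ± 0.29), while a dim second probe set gave 147 with Phf21a siRNA and 206 with control siRNA (-0.48).

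The other Ndufb genes lay between these, with log2 ratios from 0.13 to 0.26 that their local spread covered. Ndufb2 had 4961 with Phf21a siRNA and 4144 with control siRNA (0.26 ± 0.35). Ndufb7 had 8416 with Phf21a siRNA and 7165 with control siRNA (0.23 ± 0.29). Ndufb10 had 4133 with Phf21a siRNA and 3572 with control siRNA (0.21 ± 0.37). All 3 are accessory subunits of the membrane arm. Ndufb3 had 4005 with Phf21a siRNA and 3618 with control siRNA (0.15 ± 0.37). Ndufb9 had 8325 with Phf21a siRNA and 7524 with control siRNA (0.15 ± 0.29). Ndufb6 had 6302 with Phf21a siRNA and 5770 with control siRNA (0.13 ± 0.33), and its probe sets reached down to -0.02.

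Fewer members make up the other membrane-arm classes. Ndufc1 had 7849 on the Phf21a siRNA array and 7098 on the control array (0.15 ± 0.29), and its second probe set gave 0.12. Ndufc2 had 7814 with Phf21a siRNA and 7416 with control siRNA (0.08 ± 0.29), but its other detected probe sets gave -0.25 and -0.23, so no side can be named for it. Ndufab1, the mitochondrial acyl carrier protein that serves both complex I and fatty acid synthesis in the matrix, had 5432 with Phf21a siRNA and 4747 with control siRNA (0.19 ± 0.34) with 4 probe sets from -0.14 to 0.53.

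**Figure D3:**
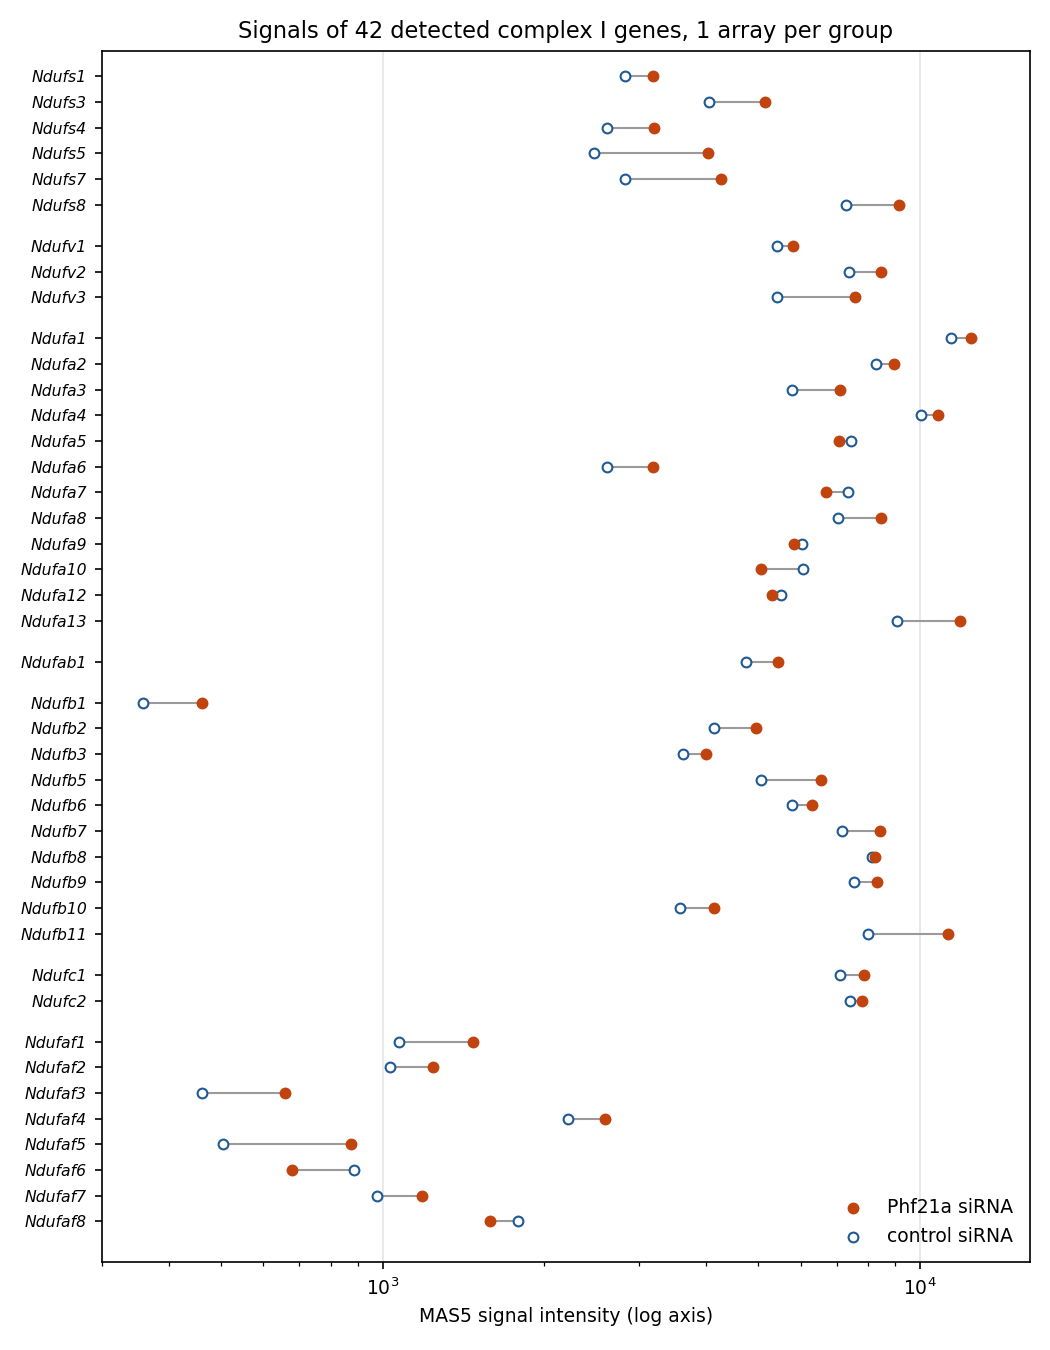
MAS5 signal (log axis) of the probe set that represents each of the 42 detected complex I genes, with filled circles for the Phf21a siRNA array and open circles for the control array, grouped as Ndufs, Ndufv, Ndufa, Ndufab, Ndufb, Ndufc and Ndufaf. As deposited, the filled circle lies to the right in 35 genes and to the left in 7 (1 to the right under poly-A scaling), and distances are short except for genes such as Ndufs5, Ndufs7 and Ndufaf5; positions of different genes depend on their probes and are not comparable.

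The 8 assembly factors had a wider range of log2 ratios than the subunits, from -0.38 to 0.79. Their median was 0.27, with 6 above 0, 1 past 1.5-fold upward and 0 downward. They were dimmer than all subunits but Ndufb1, with local spreads of 0.42 to 0.53, and the part of brightness in the wider range was not tested. Ndufaf5, which in human hydroxylates an arginine of NDUFS7, was the member furthest from 0 with 874 on the Phf21a siRNA array and 505 on the control array (0.79 ± 0.53), or 1.73-fold higher on its only probe set. It kept a value above 0 under poly-A scaling (0.07), which no other complex I gene did. Ndufaf3, which acts with Ndufaf4 on the early Q module, had 657 with Phf21a siRNA and 462 with control siRNA (0.51 ± 0.53). Ndufaf1, a factor of membrane-arm assembly, had 1476 with Phf21a siRNA and 1073 with control siRNA (0.46 ± 0.46). These 3 genes were higher by amounts close to or above the local spread at their brightness.

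The other assembly factors were nearer to 0 or on its other side. Ndufaf7, a methyltransferase that acts early in assembly, had 1183 on the Phf21a siRNA array and 978 on the control array (0.27 ± 0.46). Ndufaf2, a paralogue of Ndufa12 that acts late in assembly, had 1242 with Phf21a siRNA and 1033 with control siRNA (0.27 ± 0.46). Ndufaf4 had 2595 with Phf21a siRNA and 2209 with control siRNA (0.23 ± 0.42), with a second probe set at -0.04. Ndufaf6, a factor of early assembly, was the lowest of all 42 genes, at 677 with Phf21a siRNA and 884 with control siRNA (-0.38 ± 0.51). Ndufaf8, which in human works with NDUFAF5, had 1582 with Phf21a siRNA and 1784 with control siRNA (-0.17 ± 0.46), and its second probe set gave 0.17. Ndufaf5 and Ndufaf8 therefore did not lie on the same side by their brightest probe sets.

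**Figure D4:**
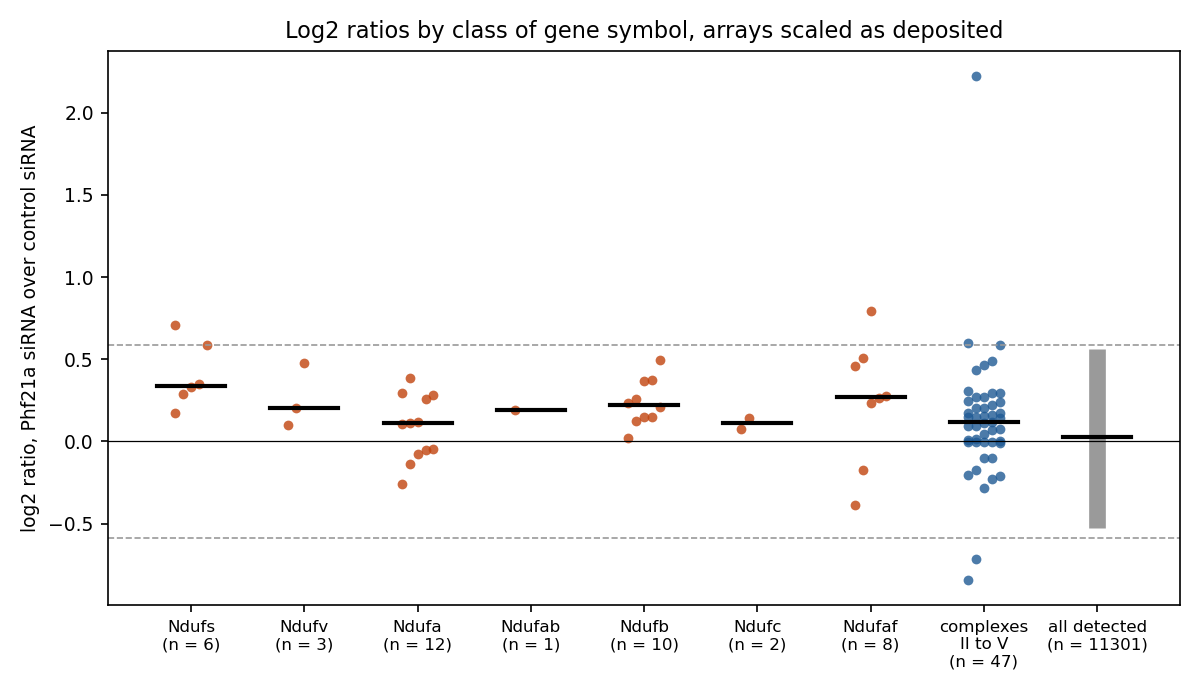
Log2 ratios (Phf21a siRNA over control siRNA, arrays scaled as deposited) of the detected genes of each Nduf class, of complexes II to V and, as a grey bar from the 16th to the 84th percentile, of all detected genes; black lines are medians and dashed lines mark 1.5-fold. Class medians run from 0.11 for Ndufa and Ndufc to 0.34 for Ndufs, against 0.03 for all detected genes, and all are below 0 under poly-A scaling.

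Grouped by place in the enzyme, each group had a median above the overall 0.03. The 6 core subunits on the array had a median log2 ratio of 0.27 and were all above 0, and 3 of them passed their local spread. The 27 accessory subunits had a median of 0.19, with 22 above 0. By module, the medians were 0.34 for 4 genes of the Q module, 0.17 for 9 of the N module, 0.15 for 9 of the proximal membrane arm and 0.21 for 11 of the distal membrane arm. These groups share members with the symbol classes and are small, and the differences between them were not tested. Without the assembly factors and Ndufa4, the 33 subunits had a median of 0.20 with 28 above 0.

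Taken as probe sets, the members had a median log2 ratio of 0.17, against -0.0033 for all 21092 detected probe sets of 1 gene. Of the 82 detected member probe sets 64 were above 0, against 49.6% of all. By 1.5-fold or more 4 of the 82 were higher, against 14.2% of all. By the same cutoff 1 was lower, the dim one of Ndufs4, against 16.1% of all. The 65 probe sets with a mean signal of at least 1000 ran from -0.26 to 0.71, with 54 above 0. The 10 with a mean signal under 250 ran from -1.09 to 0.53. Among the 22 genes with several detected probe sets, the probe sets shared a sign in 10 and differed in 12, while they shared a sign in 61.4% of the 5597 such genes on the array. Probe sets of a gene were read from the same RNA and are not replicates.

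Of the complex I subunits encoded by mitochondrial DNA, 1 of 7 had a probe set. ND5, a proton-pumping core subunit at the far end of the membrane arm, had 10833 on the Phf21a siRNA array and 7584 on the control array (0.51 ± 0.29). It thus lay on the same side as most nuclear-encoded subunits, as deposited.

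Assembly factors without an Nduf symbol had a median just below that of all detected genes. All 11 on the array, of 12 listed, were detected, with a median log2 ratio of -0.02, 5 above 0 and 6 below. Dmac2, a factor of the distal membrane arm, was the 1 gene past 1.5-fold, with 322 on the Phf21a siRNA array and 192 on the control array (0.75 ± 0.59). Foxred1, a flavoprotein factor, had 253 with Phf21a siRNA and 360 with control siRNA (-0.51 ± 0.57). Timmdc1 and Ecsit, factors of membrane-arm assembly, were at -0.41 and -0.37. Acad9, a partner of Ecsit and Ndufaf1, was at 0.21 by its brightest probe set and at -0.21 by the other, so no side can be named for it. Aifm1 was at 0.18 and Tmem70 at 0.15. All but Dmac2 lay within their local spread by their brightest probe set.

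Complexes II to V, which carry the later steps of electron transfer and make ATP, had a median between those of complex I and of all detected genes. Their 47 detected genes had a median log2 ratio of 0.12, with 33 above 0, 3 past 1.5-fold upward and 2 downward. By complex the medians were 0.16 for complex II, 0.01 for complex III, 0.10 for complex IV and 0.15 for complex V, against 0.22 for complex I. The genes past 1.5-fold upward were Sdhaf4, a complex II assembly factor (0.60), Atp5e (0.59) and Cox7a1, a complex IV isoform of muscle and brown fat. Those past it downward were Atp5g1 (-0.84) and Cox8c (-0.72). Cox7a1 had 66.7 with Phf21a siRNA and 14.3 with control siRNA, so it passed the detection limit only on the array where it was higher. With the floor at the median signal its log2 ratio was 0.38, which is under 1.5-fold. Cox7a1 was the 1 detected of 4 listed markers of thermogenic (heat-producing) fat. Ucp1 (2.92 with Phf21a siRNA, 23.3 with control siRNA), Cidea and Cox8b were not detected. Of 3 skeletal muscle markers 1 was detected, Acta1, and it was lower (69.4 with Phf21a siRNA, 121 with control siRNA). By the probe sets that stood for the genes, no complex I gene was as low as Atp5g1 or Cox8c, and the lowest was at -0.38. A dim Ndufs4 probe set that did not stand for its gene was at -1.09. The differences between complexes were not tested.

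Regulators of respiratory genes were mixed. Of 9 listed and detected, 5 were above 0 and 4 below, with a median log2 ratio of 0.03, and 2 passed 1.5-fold upward and 0 downward. Ppargc1a, a coactivator of mitochondrial genes, had 324 on the Phf21a siRNA array and 68.6 on the control array (2.24 ± 0.64), and Esrra, a nuclear receptor it works with, had 804 with Phf21a siRNA and 497 with control siRNA (0.70 ± 0.53). Nrf1, Gabpa and Yy1, transcription factors with known sites in respiratory gene promoters, were at -0.29, 0.03 and 0.20. The detected probe sets ran from -0.89 to 0.03 for Nrf1, from 0.03 to 0.36 for Gabpa and from -0.23 to 0.29 for Yy1. Gabpb1, the partner of Gabpa, was at -0.38 and Pprc1, a relative of Ppargc1a, at -0.37. Tfam, which packages and transcribes mitochondrial DNA, was at -0.02, and at -0.50 with its 2 probe sets averaged. Ppargc1b, another relative of Ppargc1a, was at 0.26 near the detection limit. Apart from Ppargc1a and Esrra, which were higher by more than their local spread, the regulators lay within it by their brightest probe set.

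Promoters were searched for the letters that such factors bind, in RefSeq windows of 250 bases before to 50 after each gene's start (build GRCm38.p6), which existed for 38 of the 42 genes. The motifs, read on both strands, were GCGCATGCG for NRF1, TCAAGGTCA for the ERR receptors, CCGGAAGT for ETS factors including GABP, and AAGATGGCG for YY1. None contains another, and the NRF1 letters nearly match their own reverse complement, so 1 site can be read on both strands. The NRF1 letters were in 3 of 38 complex I promoters (7.89%), against 16.7% of 36 promoters of complexes II to V, 4.27% of 9184 detected genes and 1.95% of all 27025 genes with a window. The YY1 letters were in 5 (13.2%), against 5.56% of complexes II to V, 3.72% of detected genes and 1.64% of all genes. The ETS letters were in 1 (2.63%), against 11.1% of complexes II to V, 9.49% of detected genes and 4.31% of all genes. The ERR letters were in 0 of the 38, against 5.56% of complexes II to V, 0.294% of detected genes and 0.466% of all genes. Any of the motifs was in 9 (23.7%), against 36.1% of complexes II to V, 16.7% of detected genes and 7.93% of all genes. Complex I promoters thus held the NRF1, ETS and ERR letters at a lower share than those of complexes II to V and the YY1 letters at a higher one, in small counts with no test.

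Complex I genes with and without a match were set side by side by their medians, with no test. The 9 complex I genes with any of these motifs had a median log2 ratio of 0.26, against 0.23 for the 29 without. Genes with the YY1 letters were Ndufa9, Ndufaf8, Ndufc1, Ndufs4 and Ndufs7, which ran from -0.17 to 0.59. Their median was 0.15, against 0.26 for the 33 without the YY1 letters. Genes with the NRF1 letters were Ndufa8, Ndufaf4 and Ndufaf5, with a median of 0.26 against 0.23 for the 35 without. The ETS letters were in Ndufs3. Such matches describe letters only, and letters missing from a window say nothing about a factor.

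The stretches from 100 bases before to 30 after the start are shown for the 3 genes at least 1.5-fold higher and for the lowest subunit, Ndufa10, so that the extremes can be compared. Each reads 5′ to 3′ along the gene, and capitals mark the NRF1 letters. They lie at chr4:123718157-123718286 on the minus strand for Ndufs5, chr10:80249349-80249478 on the plus strand for Ndufs7, chr2:140170546-140170675 on the plus strand for Ndufaf5 and chr1:92473729-92473858 on the minus strand for Ndufa10. The sequences are RefSeq's, in build GRCm38.p6.
Ndufs5: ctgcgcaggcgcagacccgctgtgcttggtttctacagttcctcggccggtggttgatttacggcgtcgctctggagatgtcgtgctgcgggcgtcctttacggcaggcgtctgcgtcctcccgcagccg
Ndufs7: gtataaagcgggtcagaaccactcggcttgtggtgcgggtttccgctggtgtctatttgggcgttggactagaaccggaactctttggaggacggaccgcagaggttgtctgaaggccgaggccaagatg
Ndufaf5: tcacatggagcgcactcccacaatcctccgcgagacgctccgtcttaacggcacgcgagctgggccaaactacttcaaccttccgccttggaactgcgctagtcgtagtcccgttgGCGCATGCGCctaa
Ndufa10: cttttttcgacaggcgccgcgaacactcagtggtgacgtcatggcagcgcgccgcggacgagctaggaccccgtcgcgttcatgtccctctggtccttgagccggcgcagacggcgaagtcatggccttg

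The Ndufaf5 stretch holds the NRF1 letters just after the start, read on both strands. The YY1 letters of Ndufs7 begin at base 25 after its start and run past the end of the stretch. The Ndufs5 and Ndufa10 windows hold none of the searched letters.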

How the data were processed

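Total RNA of 2 cultures was hybridised to 1 array each, and the labels name no further cultures. Signal intensity per probe set was deposited by the authors as linear MAS5 values, per the submitters' processing notes, which state no version. The arrays arrive with equal trimmed means, so a change in messenger RNA per cell cannot be seen. Of 45101 probe sets 64 were controls, 34945 had 1 gene, 932 several and 9160 none, and only those with 1 gene were named. All 44 complex I genes matched RefSeq by Entrez number, with 0 symbols changed.

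Signals below 12.9, the 25th percentile over both arrays, were set to it ahead of the log2 step. Every detected Nduf gene is given with both signals, the listed assembly factors and regulators may be named, and genes of complexes II to V are named past 1.5-fold. Members and lists were chosen with earlier results of these data known. With 1 array per group no test was made, and the procedure was tested on simulated data. Alternatives covered scaling, floor, pseudocount, choice of probe set, detection limit and fold cutoff, and 1 on the members was added after seeing the data. Protein sequences were not used here. Software was Python 3.11.15 with pandas 2.3.3, numpy 2.4.6, statsmodels 0.14.6, scipy 1.17.1 and, for plots, matplotlib 3.10.9.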

Additional observations from a re-analysis of the deposited data

How the results depend on the processing

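No paired analysis was possible because each group had 1 array. The alternatives that changed a sign were mostly the control scalings, which shift every gene alike. Scaled to the poly-A controls, the complex I median log2 ratio was -0.50, with 0 genes at least 1.5-fold higher, 14 lower and 1 above 0. Class medians were then -0.61 for Ndufa, -0.50 for Ndufb, -0.61 for Ndufc, -0.39 for Ndufs, -0.52 for Ndufv and -0.46 for Ndufaf, and -0.60 for complexes II to V. Single genes that passed 1.5-fold and changed sign there were Ndufs5 (-0.017), Ndufs7 (-0.14), Esrra (-0.030), Atp5e (-0.14) and Sdhaf4 (-0.13). Scaled to the hybridisation controls, the complex I median was -0.0067, with 0 genes higher, 1 lower and 21 above 0. Class medians were then -0.12 for Ndufa, -0.0065 for Ndufb, -0.12 for Ndufc, 0.11 for Ndufs, -0.025 for Ndufv and 0.042 for Ndufaf, and -0.11 for complexes II to V. Without probe sets ending in _x_at, _s_at or _a_at, 1 of 32 complex I genes was at least 1.5-fold higher and the Ndufc median was -0.061. The Ndufc median was 0.00076 with probe sets averaged. With the cutoff lowered to a 25% excess of the brighter array over the dimmer one, 12 genes were higher and 1 lower, and at 2-fold 0 were higher. Leaving out the Ndufaf factors and Ndufa4, an alternative chosen after seeing the data, gave a median of 0.20 over 33 genes, with 2 past 1.5-fold upward, 0 downward and 28 above 0. Median centring, quantile normalization, loess, the floor, the pseudocount and the detection limits kept the direction of each complex I and class median, and centring, quantile normalization, loess and averaged probe sets left 2 genes past 1.5-fold in place of 3. Of 742 values of single genes under an alternative, 665 moved by less than the local spread, 72 by more, and the 5 given above were those past 1.5-fold that changed sign. Low signals limit the dim probe sets of Ndufs4, Ndufa10 and Ndufb8.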
